A study of Mus musculus with 6 samples.

Results

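The genes described here are 10 immediate-early response genes, Fos, Fosb, Jun, Junb, Jund, Egr1, Egr2, Ier2, Atf3 and Dusp1, all 10 of which were found by symbol among the 19241 genes of the deposited expression table. They were chosen by symbol as textbook members of the class, with the measured KO and WT FPKM values already known. Their KO against WT differences are therefore given as a description, with no support drawn from them. The count of members past the threshold used for all genes is given below as part of that description. The data are bulk RNA-seq of newborn mouse interscapular brown fat, the pad between the shoulder blades, sampled as a whole depot. WT is the group with genotype Fstl1-floxed (3 libraries), and KO is the group with genotype Myf5-Fstl1 KO (3 libraries), in which Fstl1, the gene of the secreted glycoprotein follistatin-like 1, was deleted in cells descended from Myf5-expressing precursors. Skeletal muscle and much of this depot descend from those precursors, while vessels, nerves and blood cells of the depot have other origins. The labels do not say whether WT carries a Cre transgene, nor whether a library holds 1 mouse or several, so the spread between libraries may be in part technical. Values are FPKM, which divide the fragments of a gene by its transcript length and by the size of the library and so allow levels to be compared between genes. Where 3 values of a group stand in a row they are replicates 1, 2 and 3 in that order.

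Immediate-early genes are transcribed within minutes of a stimulus from factors that are already present in the cell, with no need for new protein. Growth factors reach them through the MAP kinase cascade and the serum response factor with its ETS partners, and adrenergic signals, which drive heat production in brown fat, reach them through cyclic AMP and CREB. FOS and JUN proteins pair to form the transcription factor AP-1, EGR proteins are zinc finger factors, ATF3 is a stress-induced relative of CREB, and DUSP1 is a phosphatase that switches MAP kinases off again. The transcripts are short-lived, and levels of this class can also change during handling of tissue.

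Promoter sequence shows where the cyclic AMP route could meet these genes. RefSeq start windows (GRCm38.p6, the assembly behind mm10) were used for 8 of the 10 members. Egr1 and Ier2 were not searched, so nothing is said of their motifs, the CArG box included. The 250 bases before each start were searched on both strands for the CRE TGACGTCA and its core TGACGT. The search also covered the AP-1 site TGACTCA, the variant TGACATCA, the CArG box bound by serum response factor, and TATAAA. The CRE contains the core, so a CRE counts for both. Shown are Fos and Dusp1, whose KO libraries all lay below the WT libraries, and Jun and Atf3, whose groups overlapped. Matches are in capitals.
Fos, chr12:85473640-85473889, plus strand: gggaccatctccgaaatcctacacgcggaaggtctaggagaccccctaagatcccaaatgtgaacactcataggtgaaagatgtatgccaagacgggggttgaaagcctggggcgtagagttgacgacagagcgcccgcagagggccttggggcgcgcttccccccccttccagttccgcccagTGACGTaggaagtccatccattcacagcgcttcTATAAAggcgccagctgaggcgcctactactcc
Dusp1, chr17:26508473-26508722, minus strand: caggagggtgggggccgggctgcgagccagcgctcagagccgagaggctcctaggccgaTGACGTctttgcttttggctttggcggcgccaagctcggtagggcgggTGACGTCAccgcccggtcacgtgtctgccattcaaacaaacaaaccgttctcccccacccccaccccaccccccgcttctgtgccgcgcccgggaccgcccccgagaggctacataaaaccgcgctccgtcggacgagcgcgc
Jun, chr4:95052223-95052472, minus strand: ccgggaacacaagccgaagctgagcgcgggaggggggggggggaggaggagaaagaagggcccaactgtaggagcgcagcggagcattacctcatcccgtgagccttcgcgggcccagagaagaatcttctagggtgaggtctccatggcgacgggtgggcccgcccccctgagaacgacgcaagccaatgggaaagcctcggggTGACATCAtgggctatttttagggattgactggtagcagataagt
Atf3, chr1:191183334-191183583, minus strand: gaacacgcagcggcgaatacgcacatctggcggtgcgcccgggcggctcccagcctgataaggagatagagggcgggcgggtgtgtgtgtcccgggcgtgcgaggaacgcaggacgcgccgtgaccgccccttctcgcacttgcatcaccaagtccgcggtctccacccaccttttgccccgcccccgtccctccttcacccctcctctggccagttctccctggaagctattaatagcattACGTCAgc
In Fos the core began 66 bases before the start and TATAAA 33 bases before it. Dusp1 held a full CRE 143 bases before the start and a further core at 191 bases. Jun held the variant at 45 bases, and Atf3 the core, on the other strand, at 8 bases. Egr2 held a CArG box in 4 of its windows, whose starts differ, and 3 of these also held the core. Those 3 windows overlap and hold the same CArG box and the same core, so they are not separate sites. No match was found in the windows of Fosb, Junb and Jund. Over the 32851 start windows searched at the same length, 6.47% held the core, 1.55% the full CRE and 2.93% the variant. A CArG box was held by 1.47% of them and TATAAA by 12.4%. A match describes the letters and shows no binding. Bases farther upstream than 250 were not searched. The lack of a match, such as of a CArG box in Fos, therefore holds for the window alone.

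The libraries were alike in depth. Steps between low FPKM values gave an estimate of 13880000 to 15020000 reads a library, and 76.85% to 81.5% of the values used lay within 0.2 of a whole read. Fstl1 was at 7.93 to 13.08 FPKM in KO and at 54.37 to 130.04 FPKM in WT. Xist lay at 44.82 to 85.51 FPKM in WT and at most at 0.92 in KO, and the Y-linked gene Ddx3y at 59.54 to 60.82 FPKM in KO and at most at 0.23 in WT, so that sex and genotype cannot be told apart in any difference below. Brown fat was checked against 12 fat cell markers, not all of them particular to brown fat. All were detected, with summed levels of 21097 to 26531 FPKM in WT and 20193 to 22091 FPKM in KO, most of it from Fabp4. Of the 12, 2 passed as lower in KO in limma, Plin1 at 37.9% of the WT mean (adjusted p 0.0267) and Lep at 7.30% (adjusted p 0.0423). Neither is particular to brown fat, and Lep was low, with a WT mean of 1.37 FPKM. Ucp1 (48.9% of the WT mean), Prdm16 (46.0%) and Ebf2 (44.4%) did not pass, and each KO library lay below every WT library. Over the 12, 8 log2 differences were below 0 and 4 above 0. In 5, all KO libraries lay below all WT libraries, as in 11.4% of all genes tested. Ppargc1a (147% of the WT mean), Adipoq (118%), Pparg (115%) and Cidea (108%) were higher in KO, with overlap. Plin1, Lep, Ucp1, Prdm16 and Ebf2, not the list as a whole, were lower in KO, as were the members Fos, Egr1 and Dusp1. These markers and members were singled out by the same comparison, so their shared direction shows no link between them. The part of the markers in the values of the members was not tested.

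In the WT libraries the members spanned a wide range of levels. Dusp1 was highest at 37.3 ± 6.85 FPKM (SD, n = 3), followed by Jund at 28.2 ± 5.07, Ier2 at 19.4 ± 7.26, Egr1 at 17.4 ± 1.49, Jun at 12.6 ± 2.08, Fos at 9.61 ± 0.715 and Junb at 8.93 ± 2.40 FPKM. Atf3 followed at 3.33 ± 1.10, Fosb at 1.31 ± 0.566 and Egr2 at 0.197 ± 0.133 FPKM. Neighbours in this order overlapped from Dusp1 down to Egr1, and again from Jun to Junb, so their order is not resolved within those runs. Below Egr1, Junb, Atf3 and Fosb the ranges of the libraries did not overlap with those of the next gene. In KO Dusp1, Jund and Ier2 again led, while Egr1 stood sixth, below Jun and Junb, and Fos stood eighth, below Atf3. In KO the ranges of neighbours overlapped from Dusp1 down to Fos, and did not overlap below Fos and below Fosb.

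**Figure D1:**
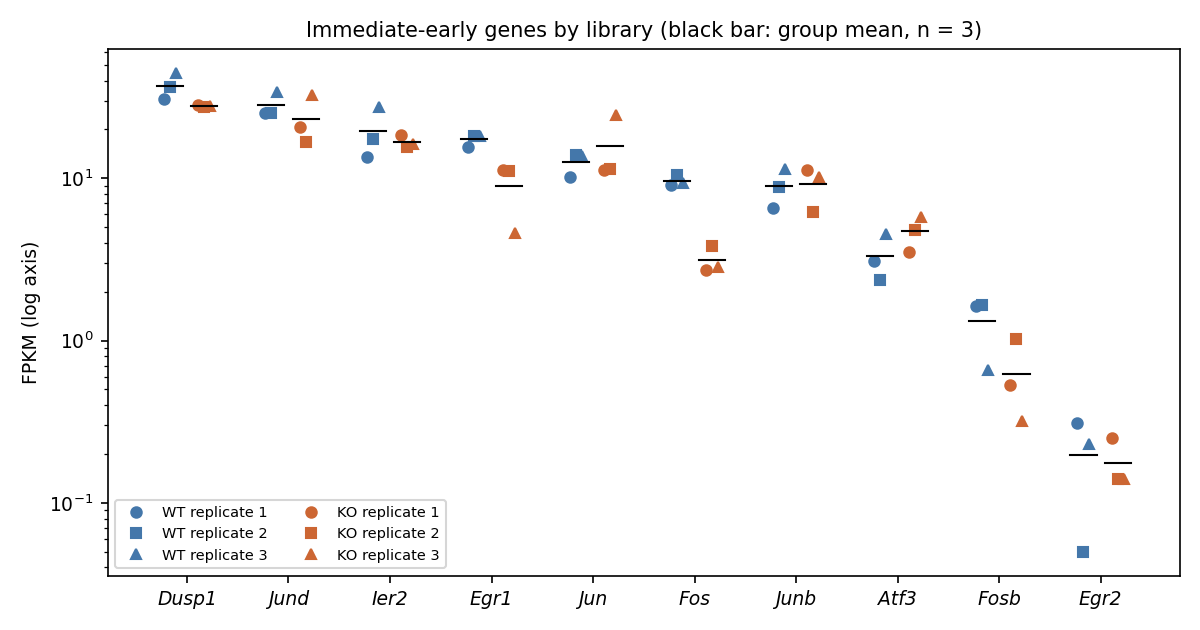
FPKM (log axis) of the 10 immediate-early genes in each of 3 WT (blue) and 3 KO (orange) libraries, ordered by WT mean, with a black bar at each group mean. Fos, Egr1 and Dusp1 have no KO library above any WT library, and the other 7 genes overlap.

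Fos showed the widest gap between the groups. Fos encodes the FOS subunit of AP-1, and lies at chr12:85473890-85477274 (mm10). It measured 9.04, 10.41 and 9.37 FPKM in the WT libraries against 2.71, 3.82 and 2.84 FPKM in the KO libraries. The highest KO library was far below the lowest WT library. KO held 32.5% of the WT mean, 3.12 ± 0.607 against 9.61 ± 0.715 FPKM (SD, n = 3 each). On the log2(FPKM + 1) scale, which understates differences of low genes, the difference was −1.37 with a standard error of 0.16. By the estimated depth these values rest on about 271 to 322 reads a library in WT and 77.4 to 118 in KO.

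Fosb, the gene of a second FOS subunit, measured 1.63, 1.65 and 0.66 FPKM in the WT libraries against 0.53, 1.03 and 0.32 FPKM in the KO libraries. WT replicate 3 lay below KO replicate 2, so the groups overlapped. The KO mean was 47.7% of the WT mean and the log2 difference −0.50 (SE 0.23). With a pseudocount of 0.01 in place of 1 the difference was −1.10, since Fosb lies near the level where the pseudocount weighs. Without WT replicate 3 the difference was −0.72, and without KO replicate 3 it was −0.36. WT values rest on an estimated 36.5 to 92.5 reads.

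The 3 JUN genes, whose proteins pair with FOS or with each other, did not separate the groups. Jun measured 10.16, 13.86 and 13.66 FPKM in the WT libraries against 11.26, 11.34 and 24.70 FPKM in the KO libraries. KO replicate 3 was the highest of all libraries, and the other 5 lay close together. The log2 difference was 0.23 (SE 0.28), and it changed sign to −0.13 without KO replicate 3. Junb measured 6.60, 8.78 and 11.40 FPKM in the WT libraries against 11.29, 6.22 and 10.15 FPKM in the KO libraries, over the same range in both groups. Its log2 difference of 0.03 (SE 0.25) ran from −0.14 to 0.27 as single libraries were left out. Jund, the least inducible of the JUN genes, measured 25.18, 25.41 and 34.07 FPKM in the WT libraries against 20.61, 16.69 and 32.38 FPKM in the KO libraries. Replicate 3 was highest in either group, and the log2 difference was −0.31 (SE 0.24), or −0.57 without KO replicate 3 and −0.11 without KO replicate 2.

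Within a library, the balance of FOS against JUN transcripts does not depend on scaling. Fos and Fosb together made up 20.3%, 20.1% and 14.5% of the summed FPKM of Fos, Fosb, Jun, Junb and Jund in WT replicates 1, 2 and 3. In KO replicates 1, 2 and 3 they made up 6.98%, 12.4% and 4.49%. The groups did not overlap, although WT replicate 3 and KO replicate 2 came near to each other. The mean share was 18.3% ± 3.28 in WT and 7.96% ± 4.05 in KO (SD, n = 3). The summed JUN genes were at 49.7 ± 8.71 FPKM in WT and 48.2 ± 17.1 in KO, and the summed FOS genes at 10.9 ± 1.04 and 3.75 ± 0.954 FPKM. The ratio of Fos to Jun was 0.89, 0.75 and 0.69 in WT and 0.24, 0.34 and 0.12 in KO. Among the KO libraries, the low value of replicate 3 reflects its high Jun, at 24.70 FPKM against 11.26 and 11.34. Its Fos, at 2.84 FPKM, lay between those of replicates 1 and 2 (2.71 and 3.82).

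**Figure D2:**
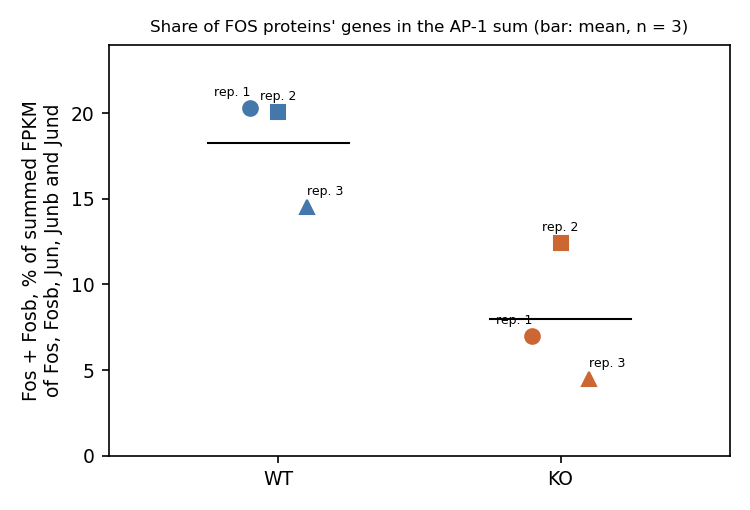
Share of Fos and Fosb (in percent) in the summed FPKM of the 5 AP-1 members in each WT and KO library, with the group mean as a bar. WT libraries lie between 14.5% and 20.3%, KO libraries between 4.49% and 12.4%.

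Egr1, a zinc finger transcription factor gene and a classic target of serum response factor, measured 15.70, 18.33 and 18.21 FPKM in the WT libraries against 11.30, 11.15 and 4.61 FPKM in the KO libraries. All KO libraries were below all WT libraries, and KO replicate 3 was far below the other pair. KO held 51.8% of the WT mean, with a log2 difference of −0.96 (SE 0.29), or −0.59 without KO replicate 3. In KO replicate 3, therefore, Egr1 was at its lowest and Jun at its highest level: the ratio of Egr1 to Jun was 0.19 there, 1.0 and 0.98 in the other KO libraries and 1.32 to 1.55 in WT.

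Egr2, known for its role in Schwann cells and in the early steps of fat cell formation, was barely detected. It measured 0.31, 0.05 and 0.23 FPKM in the WT libraries against 0.25, 0.14 and 0.14 FPKM in the KO libraries, an estimated 2.2 to 13.2 reads a library. It did not reach the mean of 0.5 FPKM required for the fit, and a difference was not detectable at this depth.

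Ier2, the gene of a small nuclear protein induced by many stimuli, measured 13.46, 17.37 and 27.52 FPKM in the WT libraries against 18.43, 15.53 and 16.21 FPKM in the KO libraries. WT replicate 3 stood above all other libraries, and without it the log2 difference of −0.15 (SE 0.23) became 0.12. Atf3 measured 3.11, 2.36 and 4.53 FPKM in the WT libraries against 3.53, 4.83 and 5.80 FPKM in the KO libraries. The KO mean was 1.42 times the WT mean, with overlap between WT replicate 3 and KO replicate 1 and a log2 difference of 0.41 (SE 0.22), or 0.24 without WT replicate 2.

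Dusp1, at chr17:26505591-26508472 (mm10), measured 30.77, 36.72 and 44.44 FPKM in the WT libraries against 28.20, 27.68 and 28.00 FPKM in the KO libraries. The KO libraries were nearly equal and all lay below the lowest WT library, while WT libraries spread by a factor of 1.44. KO held 74.9% of the WT mean, with a log2 difference of −0.39 (SE 0.16), or −0.26 without WT replicate 3. Jund, Junb and Ier2 share chromosome 8 and did not follow one pattern.

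Of the 10 members, 9 passed the filter on low values. Fos was the 1 of these 9 past an adjusted p of 0.05 in limma, where 2.21% of all 13331 genes tested were past it (1.01% lower and 1.21% higher). The groups did not overlap, with KO lower, in 3 of the 9 (Fos, Egr1 and Dusp1), against 11.4% of all genes tested, and with KO higher in 0, against 13.6%. The log2 difference was below 0 in 6 and above 0 in 3. The median over the 9 was −0.31, and over all genes tested it was 0.01. Because the contrast was known when the members were named, nothing is read from these counts. The sign of each of the 9 differences was the same under quantile, median-of-ratios and common-sum scaling.

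**Figure D3:**
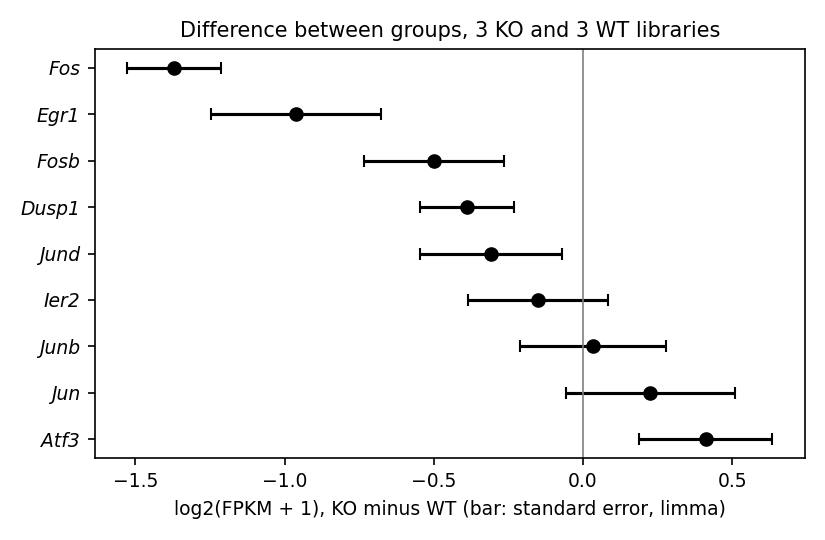
Difference in mean log2(FPKM + 1), KO minus WT, of the 9 members that passed the filter, with standard errors from limma (3 libraries a group). Values run from −1.37 for Fos to 0.41 for Atf3.

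The members did not move together across the 6 libraries. The standard deviation of log2(FPKM + 1) over the libraries was 0.76 for Fos, 0.67 for Egr1 and 0.43 for Jun, and it was smallest for Dusp1 (0.27) among the 9. Averaged over the 9 members, the log2 departure from a gene's own average came to −0.001, 0.17 and 0.34 in the WT libraries and to −0.185, −0.205 and −0.112 in the KO libraries. The root-mean-square difference of a member from this average was 0.06 for Dusp1 and between 0.23 (Ier2) and 0.545 (Fos) for the others. The average therefore resembled Dusp1 and described no other member closely. Among 12129 other genes averaging 1 FPKM or more, the 8 nearest to the average were Gps1, Atp6v0a1, Snrpb, Isyna1, Psmb2, Mrpl37, Vac14 and Necap2, at differences of 0.039 to 0.052. Of these, Gps1 encodes a subunit of the COP9 signalosome, Psmb2 a proteasome subunit and Atp6v0a1 a subunit of the vacuolar proton pump. Gps1, the nearest, measured 28.47, 31.87 and 35.65 FPKM in the WT libraries against 25.30, 23.30 and 24.69 FPKM in the KO libraries.

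**Figure D4:**
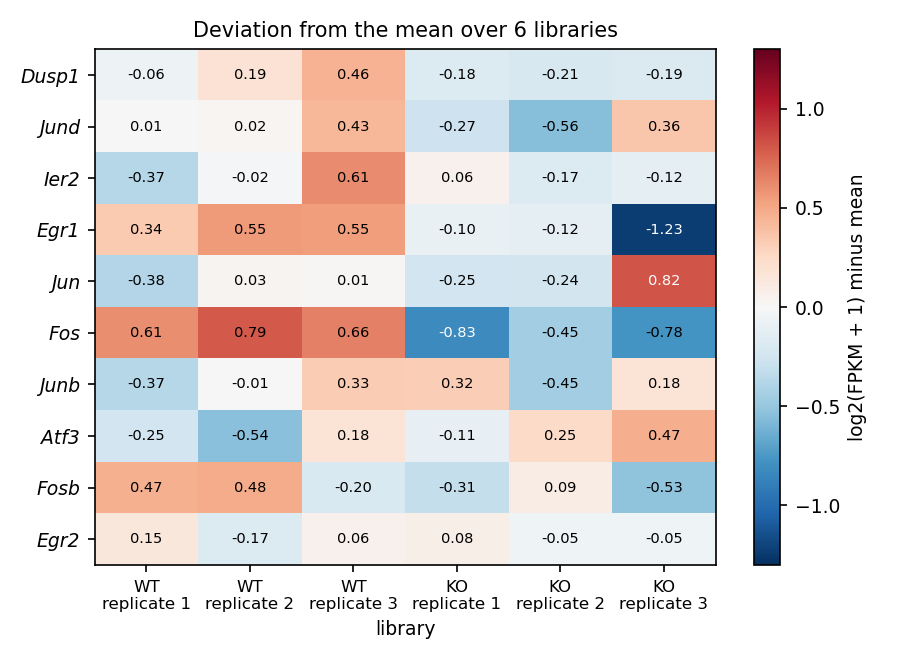
Departure of log2(FPKM + 1) from each gene's average over 6 libraries, members in rows ordered by WT mean and libraries in columns. Fos is above its mean in all WT and below it in all KO libraries, and in KO replicate 3 Egr1 (−1.23) and Jun (0.82) lie farthest in opposite directions.

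The other genes of the pathway were taken from 7 lists ordered by role, with 105 of their 113 genes passing the filter. These lists, like the members, were drawn up with earlier results of these data known. Their counts and medians, here and in the paragraphs that follow, are therefore a description, and nothing is read from them. In limma 6 of the 105 (5.71%) passed an adjusted p of 0.05, 1 lower and 5 higher. Of all genes tested 2.21% passed, 1.01% lower and 1.21% higher. The median log2 difference of the 105 was 0.01, as over all genes tested. The count of 6 changed as libraries were dropped. Dropping WT replicate 1, 2 or 3 gave 7, 2 and 0 genes. Dropping KO replicate 1, 2 or 3 gave 2, 1 and 2 genes. In the fit with 0, calls over the whole table also fell, from 295 to 31. The 6 differences kept their sign there: Spry4 −1.73, Per1 1.15, Nfkbia 1.09, Nr4a3 2.78, Maf 0.77 and Mkl2 0.695. A lower count can thus come with differences of similar size. Over the 16 alternatives Spry4 passed in 13, Per1 in 12, Nfkbia in 10, Nr4a3 in 9, and Maf and Mkl2 in 7 each, all with an unchanged sign.

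Among relatives of the FOS, JUN and ATF members, 1 of 13 passed and 12 of 13 differences were above 0, with a median of 0.21. Over all genes tested, 48.4% of differences were below 0. Maf, a large bZIP factor, rose from 9.13 ± 1.94 to 18.1 ± 1.69 FPKM (SD, n = 3; limma, log2 difference 0.93, SE 0.18, adjusted p 0.0391). Fosl2, the gene of the FOS relative FRA2, measured 4.19, 5.19 and 6.51 FPKM in the WT libraries against 8.70, 8.59 and 17.83 FPKM in the KO libraries, without overlap and without passing (limma, 0.95, SE 0.27, adjusted p 0.106). KO thus had more Fosl2 than Fos reads per length in every library, with ratios of Fos to Fosl2 of 0.16 to 0.44, where WT ratios were 1.44 to 2.16. Crem, a cyclic AMP response modulator, did not pass (limma, 0.54, SE 0.18, adjusted p 0.157). The EGR relatives gave 2 genes to test, the corepressor genes Nab1 and Nab2, at log2 differences of −0.003 (SE 0.20) and −0.19 (SE 0.22), and neither passed (limma, adjusted p 0.997 and 0.697). Egr3 was below the filter, at 0.35 to 0.80 FPKM in WT and 0.17 to 0.22 FPKM in KO.

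Of 16 other early-induced transcription factors, 1 passed, 9 differences were below 0 and the median was −0.02. Nr4a3, an orphan nuclear receptor induced by cyclic AMP, measured 7.24, 1.19 and 5.57 FPKM in the WT libraries against 31.87, 17.90 and 39.33 FPKM in the KO libraries. It rose by 2.57 on the log2 scale (limma, SE 0.47, adjusted p 0.0369), opposite in sign to Fos, and by 1.99 without WT replicate 2, where it did not pass (limma, adjusted p 0.0675). Srf, the serum response factor gene, was at 8.65 to 11.69 FPKM in WT and 5.64 to 6.36 FPKM in KO, and did not pass (limma, −0.72, SE 0.16, adjusted p 0.0559). Cebpb did not pass either (limma, −0.95, SE 0.23, adjusted p 0.0674).

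Of 30 early-induced effectors and feedback genes, 1 passed as lower and 2 as higher, with a median of −0.17. Spry4, a feedback inhibitor of receptor tyrosine kinase signalling, fell from 23.8 ± 7.0 to 6.55 ± 1.53 FPKM (SD, n = 3; limma, log2 difference −1.70, SE 0.23, adjusted p 0.0151). Per1, a clock gene that also answers cyclic AMP and glucocorticoid, rose from 22.1 ± 2.81 to 50.7 ± 8.11 FPKM (limma, 1.16, SE 0.17, adjusted p 0.0183). Nfkbia, the NF-kappa-B inhibitor, rose from 20.1 ± 5.51 to 43.4 ± 6.35 FPKM (limma, 1.10, SE 0.21, adjusted p 0.0391). Arc (−0.64, adjusted p 0.0626) and Errfi1 (1.12, adjusted p 0.0717) did not pass in limma, and their groups did not overlap.

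The relatives of Dusp1 gave 0 of 8 past the threshold in limma, with 5 at an unadjusted p under 0.05, a level that 19.2% of all genes tested reached, and a median of −0.56. Dusp6, a phosphatase for ERK, measured 38.00, 21.46 and 23.74 FPKM in the WT libraries against 15.87, 12.35 and 9.68 FPKM in the KO libraries, a log2 difference of −1.06 (limma, SE 0.24, adjusted p 0.0625). Dusp5, a nuclear ERK phosphatase, was lower by a like amount (limma, −1.06, SE 0.25, adjusted p 0.0674), and Dusp16, which acts on JNK, was higher in KO without passing (limma, 0.51, SE 0.17, adjusted p 0.143). Among 25 genes of the MAP kinase cascade 0 passed in limma, with 6 at an unadjusted p under 0.05, a share near that of all genes, and a median of −0.07. The smallest p belonged to Hras (−0.49, adjusted p 0.153), Map2k7 (0.38, 0.166) and Rps6ka5 (0.73, 0.199). Among 11 upstream factors and coactivators, 1 passed: Mkl2, a coactivator of serum response factor, rose from 7.54 ± 0.923 to 13.4 ± 1.45 FPKM (SD, n = 3; limma, 0.76, SE 0.15, adjusted p 0.0429). Elk4 (0.66, adjusted p 0.160) and Crtc3 (0.40, adjusted p 0.183) did not pass in limma.

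**Figure D5:**
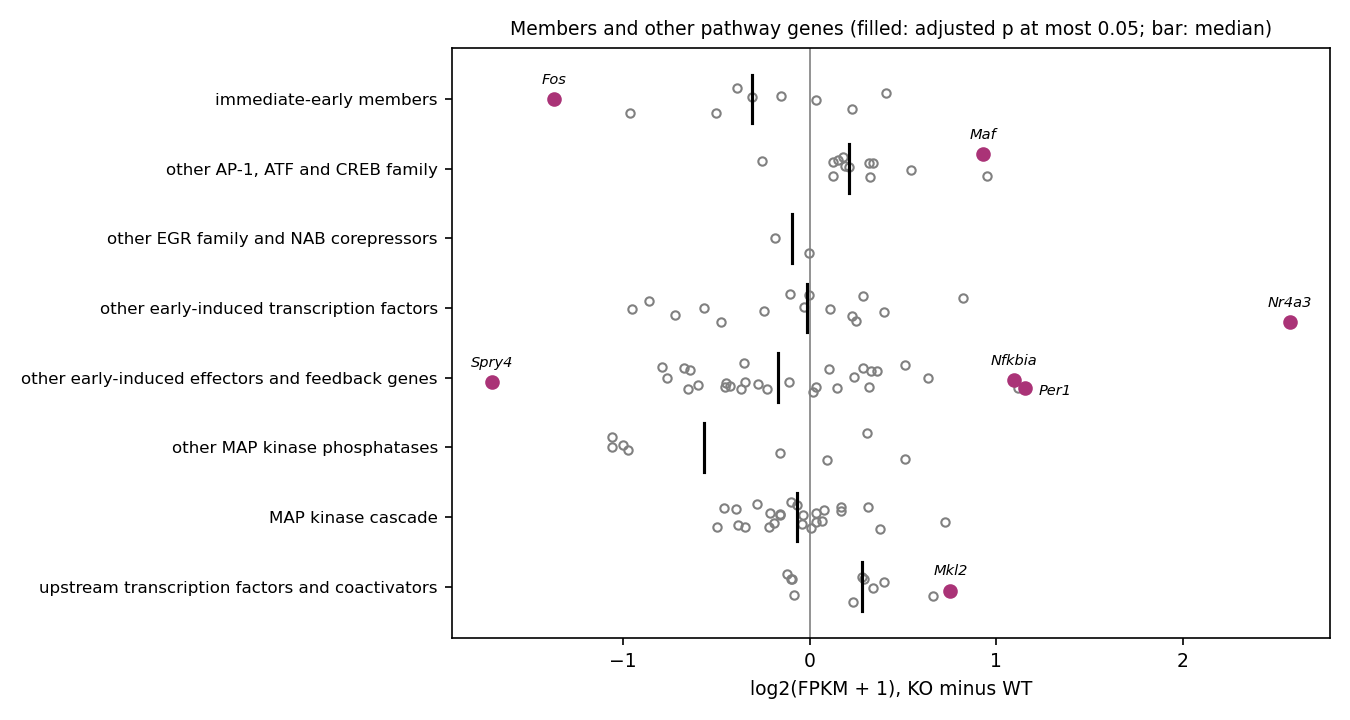
Difference in log2(FPKM + 1), KO minus WT, of the tested members and the 7 other pathway lists, 1 point a gene, filled where the adjusted p in limma was at most 0.05, with a bar at each median. Fos and Spry4 are the filled points below 0, and Maf, Nr4a3, Nfkbia, Per1 and Mkl2 those above. Fos, as a member, was named with the contrast known, and its filled point is a description.

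In a bulk library fewer cells of a type and less RNA per cell cannot be told apart. Macrophage markers were higher in KO in 9 of 9 tested, with 0 past the threshold. In 4 the groups did not overlap, against 13.6% of all genes tested with KO higher. Their summed levels were 121 to 179 FPKM in WT and 168 to 230 FPKM in KO. Skeletal muscle markers had log2 differences below 0 in 11 of 11 tested, against 48.4% of all genes, with 0 past the threshold. In 2, Myod1 and Myog, the groups did not overlap, against 11.4% of all genes with KO lower. The muscle sums were 1295 to 1877 FPKM in WT. KO replicate 1 stood apart, with a sum of 314 FPKM, while KO replicates 2 and 3, at 1422 and 1716 FPKM, lay within the range of WT. Neutrophil markers summed to 143 to 226 FPKM in WT and 170 to 407 FPKM in KO, endothelial markers to 491 to 650 and 507 to 561, fibroblast markers to 1275 to 1734 and 1371 to 2389, and Schwann cell markers to 22.2 to 29.3 and 22.04 to 25.4 FPKM. Erythroid markers summed to 3378 to 14389 FPKM in WT and to 3070 to 3956 FPKM in KO. The top value was in WT replicate 3, where Ier2, Dusp1, Junb and Jund were also highest and Fosb was lowest among the WT libraries. Epidermal markers stayed at 2.53 to 3.41 FPKM in WT and 2.10 to 2.63 FPKM in KO, with Krt5, Krt14, Krt1 and Lor under a mean of 0.5 FPKM. The markers with a mean under 0.5 FPKM in other lists were Pax7, Ly6g, Mpo, Elane and Erbb3, and no marker of any list was at 0 in every library. The part of these cell types in the values of the members was not tested.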

How the data were processed

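RNA from whole interscapular brown fat of 3 WT and 3 KO newborn samples was measured, with group and replicate number taken from the titles. The authors deposited FPKM, rounded to 2 decimals, for RefSeq genes, per the file headers. The submitters' processing notes name mm10, HISAT2 2.0.4, Bowtie2 2.2.5 and DESeq2, with no roles. The counting tool, strand handling and filters are not given in the sources used here.

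FPKM are not counts, so log2(FPKM + 1) was fitted with limma 3.58.1 in R 4.3.3 (intensity trend, no covariates) over the 13331 genes averaging 0.5 FPKM or more, with Benjamini-Hochberg adjustment over all of them at 0.05. Simulated data had 200 of 13331 genes changed by 1.5 on the log2 scale, drawn from genes above a set mean level, with independent normal noise. The fit recovered 170 (85%) with their correct direction and wrongly called 11, and with no change it called 0. Smaller changes and changes in lower genes were not simulated, so the 85% does not carry over to them. Depth was estimated from the steps of low FPKM of single-transcript genes of 500 to 1300 nt (GENCODE vM21 lengths less 50 nt), which gave whole reads too rarely for a count test. With transcript lengths shuffled, 41.3% to 45.3% of the values lay within 0.2 of a whole read.

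Members and gene lists were chosen with earlier results of these data known. Named were every member, of each other list the genes past the threshold and the next 2 by p (the first 3 where none passed), and the 8 genes nearest the members' average by root-mean-square difference. Egr3, Dusp10, the library checks and the named fat cell markers were named outside this rule after their values were seen. Markers were given as sums. Figures were drawn with matplotlib 3.10.9. Alternatives were no filter or one at 5 FPKM, pseudocounts of 0.1 and 0.01, quantile, median-of-ratios and common-sum scaling, eBayes without the trend, robust eBayes, the replicate block and leaving out each library.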

Additional observations from a re-analysis of the deposited data

How the results depend on the processing

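The members' values, as a description, moved as follows over the 16 alternatives. Fos had log2 differences of −1.63 (pseudocount 0.01) to −1.3 (without KO replicate 1). Fos, Egr1 (−1.15 to −0.59), Dusp1 (−0.52 to −0.26), Jund (−0.57 to −0.11), Fosb (−1.10 to −0.36) and Atf3 (0.24 to 0.60) kept their sign in all alternatives that tested them. Jun, Junb and Ier2 changed sign in 1, 3 and 1 fits that left out a library.

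In all 295 genes were called, against 35 without the filter, which adds genes to the test, 191 with a common sum and 31 to 370 with single libraries left out. Of the other pathway genes 6 were called, against 0 without the filter (limma, 38 of 105 at an unadjusted p under 0.05 with it) and 0 to 7 with single libraries left out. Nab1 turned to 0.024 with a common sum and ran from −0.152 to 0.175 with single libraries left out. Lower genes made up 45.4% of those called, 41.9% to 52.4% under the other scalings, 25.8% without KO replicate 2 and 29.9% without KO replicate 3, and the median log2 difference of all genes lay between −0.009 and 0.035 under the scalings. Beyond these constructions the cause was not tested.

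Both groups carry replicate numbers 1 to 3. Across genes, libraries sharing a number departed from their groups with correlations of 0.0681, 0.0433 and 0.0433. Libraries with different numbers had correlations of −0.0781 to 0.0292, each below those. All were small, and the labels state no pairing, so the replicate block was kept as an alternative and pairing was not settled. The replicate block gave 167 genes, 135 of them shared with the 295, and 6 other pathway genes, Dusp6, Dusp10, Nfkbia, Nr4a3, Per1 and Spry4. At the estimated depth 0.21 to 0.23 FPKM equals 3 reads for a 1 kb transcript, the level of Egr2.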
